A study of Mus musculus with 4 samples.

Results

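Levels of 9 genes of sugar breakdown, out of 23980 genes in the table, were compared across 4 libraries of leptotene/zygotene (L/Z) spermatocytes, male germ cells in the first stages of meiosis. The genes were chosen by name. Of these, 5 are testis isozymes (Pgk2, Pdha2, Ldhc, Ldhal6b and Gapdhs) and 4 are the somatic partners that most other cells use (Pgk1, Pdha1, Ldha and Gapdh). The cells were purified by fluorescence-activated cell sorting (FACS) from animals aged 3 to 4 weeks, all F1 hybrids of C57BL6/J and MSM/Ms. A Dnmt3L heterozygote and a Pld6 wild type (WT) were the 2 controls, and a Dnmt3L knockout (KO) and a Pld6 KO were the mutants, with 1 library each. Pld6 encodes an enzyme needed to make piRNAs, the small RNAs that act against retrotransposons in germ cells, and the Dnmt3l product assists the enzymes of de novo DNA methylation. The study asked how these losses change gene expression where retrotransposons lie nearby. Germ cells of both mutants are known to die in meiotic prophase, so a mutant testis lacks the pachytene spermatocytes and spermatids that a control testis of this age holds. Nothing in the labels says how many animals gave a library, and no mutant value has a replicate.

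Germ cells in and after meiosis replace several ubiquitous glycolytic enzymes with isozymes made only or mainly in the testis. Sperm rely on them to make ATP along the flagellum and to use lactate, and males that lack Pgk2, Ldhc or Gapdhs have poorly motile sperm and are sterile or nearly so. Pgk1 and Pdha1 lie on the X chromosome, which is silenced in pachytene, whereas their testis counterparts Pgk2 and Pdha2 are autosomal copies that arose from processed RNA.

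The libraries differed in markers of cell types. Fragments counted in genes ranged from 30439943 to 63875934 per library. The targeted genes followed the labels: Pld6 was listed at 0.334 FPKM (a fragment count corrected for gene length and library depth) in its KO against 8.55 to 19.5 FPKM elsewhere, and Dnmt3l had 0 fragments in its KO, although its level in the other libraries was only 0.432 to 1.27 FPKM. All 18 L/Z markers were detected in every library, with summed levels of 1375 to 3876 FPKM. Summed levels of 16 spermatid markers were 7457 FPKM (heterozygote), 241 FPKM (WT), 15.5 FPKM (Pld6 KO) and 31.2 FPKM (Dnmt3L KO). Prm1, Prm2, Tnp1 and Tnp2, at 1135 to 2372 FPKM in the heterozygote, weigh heavily in its sum. The medians of the 16 were 81.8, 14.5, 0.401 and 0.392 FPKM in that order. Summed levels of 12 pachytene markers were 620.5, 438, 127 and 112 FPKM in the same order. Summed levels of 11 Sertoli cell markers were 3970, 137, 370 and 5552 FPKM in that order, low in both libraries of the Pld6 line and high in both of the Dnmt3L line. The other summed levels ranged from 826 to 1173 FPKM for 16 spermatogonial markers, 26.7 to 340.2 FPKM for 8 Leydig cell markers, 24.3 to 139.8 FPKM for 10 macrophage markers, 144 to 612 FPKM for 10 peritubular and vascular markers and 13.1 to 491 FPKM for 6 erythroid markers.

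The testis isozymes fall into 2 kinds by gene structure. Pgk2 (chromosome 17, 40207018 to 40208609), Pdha2 (chromosome 3, 141210004 to 141212355) and Ldhal6b (chromosome 17, 5417323 to 5418767) each have 1 exon, on the minus strand of GRCm38. Ldhc (chromosome 7, 46861263 to 46878147) has 8 exons and starts 5635 bases after the end of Ldha (chromosome 7, 46842274 to 46855627), on the same strand and with the same number of exons. Gapdhs (chromosome 7, 30729779 to 30744791) has 11 exons, and Gapdh (chromosome 6, 125161852 to 125166467) has 7. The parents of the 1-exon genes are split into many exons, 11 in Pgk1 (chromosome X, 106187100 to 106203699) and 11 in Pdha1 (chromosome X, 160122219 to 160138430).

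The coding sequences of a testis isozyme and its somatic partner differ at enough places for reads of 50 bases to tell them apart. Identity over aligned coding bases was 79.3% for Pgk2 and Pgk1, 75.6% for Pdha2 and Pdha1, 73.9% for Ldhc and Ldha, 71.5% for Gapdhs and Gapdh, and 70.2% for Ldhal6b and Ldha. No pair shared a stretch of 50 bases. For each of the 5 testis isozymes, 0% of the 50-base stretches of the transcript recurred in a transcript of another gene. The somatic partners are less secure. Of the stretches of Gapdh, 90.4% recurred in transcripts of other genes (218 genes, many of them processed copies), and for Pgk1 the share was 68.0%, mostly in Pgk1-rs7 and Gm5537. The share was 16.6% for Ldha and 0.464% for Pdha1. Levels of Gapdh and Pgk1 are therefore uncertain to the extent that the counting split such reads.

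Glyceraldehyde-3-phosphate dehydrogenase carries out the first energy-yielding step of glycolysis, and Gapdhs encodes the form that is anchored in the sperm tail. Gapdhs was listed at 99.2 FPKM in the heterozygote and 16.1 FPKM in the WT, against 0.891 FPKM (36 fragments) in the Pld6 KO and 1.43 FPKM (86 fragments) in the Dnmt3L KO. Both mutants lay below both controls, but the controls themselves were 6.15-fold apart, the widest gap between controls among the 9 genes. Against the lower control the level was 18.1-fold lower in the Pld6 KO (95% counting interval 13.0 to 26.0) and 11.3-fold lower in the Dnmt3L KO (9.02 to 14.2). These intervals cover the counting of fragments only, not the spread between animals. As everywhere in such bulk RNA, fewer cells of a type and less RNA per cell cannot be told apart. Gapdh, the ubiquitous form, was listed at 606.5 FPKM in the heterozygote, 336 FPKM in the WT, 349 FPKM (11944 fragments) in the Pld6 KO and 570.3 FPKM (29069 fragments) in the Dnmt3L KO. Both mutants lay inside the range of the controls.

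Phosphoglycerate kinase makes ATP in the next step. Pgk2 was listed at 87.7 FPKM in the heterozygote (7914 fragments), 40.2 FPKM in the WT (2274 fragments), 0.0227 FPKM in the Pld6 KO (1 fragment) and 0.258 FPKM in the Dnmt3L KO (17 fragments). The mutants did not overlap the controls, and the gene was close to undetected in the Pld6 KO. The ratio of the Pld6 WT to the Pld6 KO was 1770.5, with a 95% counting interval of 317 to 69961 because it rests on 1 fragment. In the Dnmt3L KO the level was 156-fold lower than in the Pld6 WT (97.0 to 268) and 340-fold lower than in the heterozygote of its own line (212 to 584). Pgk1 gave 63.2 FPKM in the heterozygote, 25.3 FPKM in the WT, 39.3 FPKM (2024 fragments) in the Pld6 KO and 72.2 FPKM (5557 fragments) in the Dnmt3L KO. The Pld6 KO lay between the controls and the Dnmt3L KO a little above the higher one. This is the order of the libraries in the summed Sertoli cell markers, whose part in the level of Pgk1 was not tested.

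**Figure D1:**
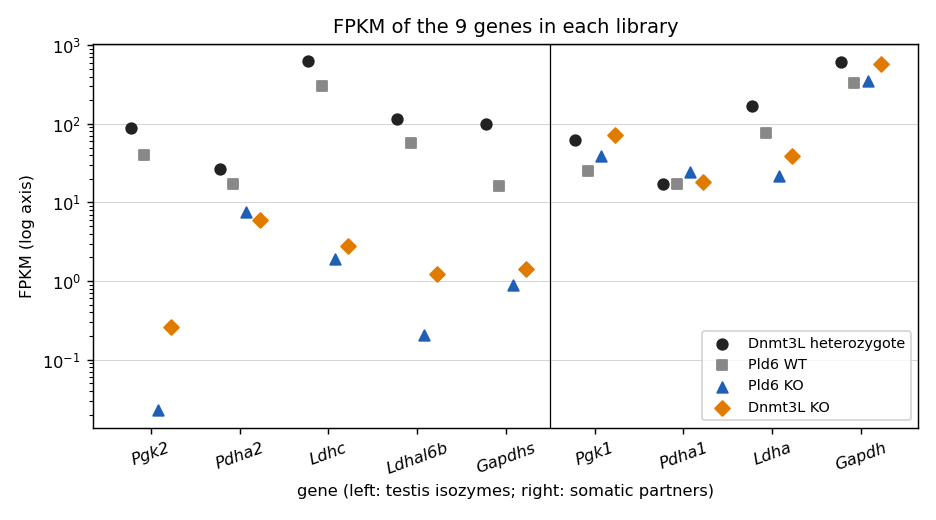
FPKM of the 9 genes on a log axis, with 1 point per library and no error bars because each point is a single library. Pgk2, Ldhc, Ldhal6b and Gapdhs sit far below both controls in both mutants, with Pgk2 at 0.0227 and 0.258 FPKM, while Pgk1, Pdha1 and Gapdh stay within or near the range of the controls.

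The sequences just upstream of Pgk2 and Pgk1 are shown to set the X-linked parent beside its autosomal copy. They are from RefSeq on GRCm38, each 5′ to 3′ on the strand of the gene, for Pgk2 chr17:40208611-40208859 (minus strand) and for Pgk1 chrX:106186850-106187099 (plus strand). Capitals mark matches on either strand to CCAAT, to GGGCGG (a GC box), to TATAAA, to TGACG (the core of a cAMP response element) or to AACNGTT (a MYB site). The last 30 bases of the Pgk2 window lie in the first exon of the longer GENCODE model.
Pgk2: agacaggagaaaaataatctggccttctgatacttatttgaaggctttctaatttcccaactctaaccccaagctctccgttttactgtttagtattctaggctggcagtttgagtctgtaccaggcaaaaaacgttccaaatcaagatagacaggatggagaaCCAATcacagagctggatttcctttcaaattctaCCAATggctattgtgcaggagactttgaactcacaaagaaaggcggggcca
Pgk1: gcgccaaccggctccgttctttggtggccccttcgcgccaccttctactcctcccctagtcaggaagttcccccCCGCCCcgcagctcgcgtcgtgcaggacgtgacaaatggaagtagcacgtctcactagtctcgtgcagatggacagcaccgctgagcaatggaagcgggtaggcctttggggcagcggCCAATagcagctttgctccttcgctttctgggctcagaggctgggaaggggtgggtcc
The Pgk2 window holds 2 CCAAT matches, and the Pgk1 window holds 1 CCAAT and 1 GC box match. CCAAT occurs in 33.8% and the GC box in 32.7% of the 32851 promoter windows of 250 bases searched. The GC content of the full 250 bases was 42.0% for Pgk2 and 62.8% for Pgk1.

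Lactate dehydrogenase interconverts pyruvate and lactate. Ldhc, the main form in sperm, was the most abundant of the 9 genes in the Dnmt3L heterozygote, at 623 FPKM, and was second to Gapdh in the Pld6 WT, at 304 FPKM. It was listed at 1.91 FPKM in the Pld6 KO (67 fragments) and 2.80 FPKM in the Dnmt3L KO (147 fragments), sixth among the 9 in both. The level in the Pld6 KO was 159-fold below that in the Pld6 WT (126 to 206). That in the Dnmt3L KO was 109-fold below it (92.4 to 129) and 223-fold below the heterozygote (189 to 263).

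Ldhal6b, a 1-exon LDH-like gene of the testis, followed the same order. Its level was 113.7 FPKM in the heterozygote, 56.8 FPKM in the WT, 0.203 FPKM in the Pld6 KO (8 fragments) and 1.24 FPKM in the Dnmt3L KO (73 fragments). No mutant came near a control. Against the Pld6 WT the level was 279.7-fold lower in the Pld6 KO (142 to 649) and 45.8-fold lower in the Dnmt3L KO (36.3 to 58.6). Ldhal6b and Pgk2 were also the members that differed most between the mutants, with levels 6.10-fold and 11.4-fold higher in the Dnmt3L KO than in the Pld6 KO. For the other 7 members that ratio was 0.744 to 1.84. These ratios between single libraries were not tested.

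Ldha, the form of muscle and many other tissues, was the somatic partner with the lowest values in the mutants relative to the controls. It was listed at 168.8 FPKM in the heterozygote, 76.4 FPKM in the WT, 21.8 FPKM (972 fragments) in the Pld6 KO and 38.6 FPKM (2600 fragments) in the Dnmt3L KO. Both mutants lay below both controls. The Pld6 KO was 3.51-fold below the WT (3.27 to 3.76) and the Dnmt3L KO 1.98-fold (1.89 to 2.08), 4.37-fold below its own heterozygote (4.19 to 4.56).

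The upstream sequences of Ldhc and Ldha are shown because these neighbours on chromosome 7 differed in how far they lay below the controls. They are chr7:46861013-46861232 for Ldhc and chr7:46845554-46845803 for Ldha, on the plus strand, with capitals as above. The Ldha window lies inside the gene span given above and precedes an inner RefSeq start. A second Ldha window, chr7:46846832-46847081, is not printed and holds 1 match to TGACG and none to the other motifs. The last 30 bases printed for Ldhc lie in the first exon of the GENCODE model, which starts upstream of the RefSeq start.
Ldhc: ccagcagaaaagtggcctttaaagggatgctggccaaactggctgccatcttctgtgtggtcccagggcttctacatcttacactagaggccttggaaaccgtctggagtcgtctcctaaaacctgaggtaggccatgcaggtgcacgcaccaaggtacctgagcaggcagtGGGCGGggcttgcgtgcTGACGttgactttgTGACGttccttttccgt
Ldha: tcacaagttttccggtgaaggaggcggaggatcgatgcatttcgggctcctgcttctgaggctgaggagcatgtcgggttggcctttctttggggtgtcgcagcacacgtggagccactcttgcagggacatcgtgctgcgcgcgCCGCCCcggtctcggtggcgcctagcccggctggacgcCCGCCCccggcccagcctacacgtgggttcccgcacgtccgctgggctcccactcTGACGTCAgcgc
Both hold the cAMP response element core, found in 17.8% of all windows. Ldhc has 2 separate matches, and the 2 matches of Ldha overlap in a palindrome. Between the printed stretch and the RefSeq start of Ldhc lie 2 further matches to the MYB site, which occurs in 3.80% of windows. Among the other members, Ldhal6b had 3 matches to TATAAA, some overlapping, and 1 to CCAAT. Pdha2 had 1 MYB site and 1 TATAAA, and Pdha1, Gapdh and Gapdhs had none of the 5 motifs. The windows of Gapdh and Gapdhs also lie inside the gene spans given above. TATAAA occurs in 12.4% of windows. A match is only a run of letters and does not show that a factor binds.

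Pyruvate dehydrogenase feeds pyruvate into the mitochondrial citric acid cycle, and Pdha1 and Pdha2 encode its E1 alpha subunit. Pdha2 was listed at 26.9 FPKM in the heterozygote, 17.0 FPKM in the WT, 7.47 FPKM in the Pld6 KO (509 fragments) and 6.05 FPKM in the Dnmt3L KO (617 fragments). The mutants were again below both controls, yet Pdha2 remained readily detected. The Pld6 KO was 2.28-fold below the WT (2.06 to 2.52) and the Dnmt3L KO 2.81-fold (2.55 to 3.09). Pdha1 was the steadiest member, at 17.1, 17.4, 24.5 and 18.3 FPKM in the heterozygote, WT, Pld6 KO and Dnmt3L KO.

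By a fold rule that asks for FPKM + 1 to lie more than 2-fold beyond both controls, 6 of the 9 members were lower in the Pld6 KO, where 5.41% of all genes were, and 0 were higher, where 1.04% of all genes were. In the Dnmt3L KO 5 of the 9 were lower (5.78% of all genes) and 0 higher (2.14%). The 5 testis isozymes were lower in both mutants, as were 4.61% of all genes. Among genes with a mean FPKM of at least 1, which includes all 9 members, 8.57% were lower and 1.51% higher in the Pld6 KO, 9.16% lower and 3.29% higher in the Dnmt3L KO, and 7.3% lower in both. With no fold asked for, both mutants lay below both controls in 6 of the 9 members and in 17.9% of all genes. Of the somatic partners, Ldha alone was lower by this rule, and only in the Pld6 KO. The members nearest to the rule were Pdha2, just inside it in the Pld6 KO, and Ldha, just outside it in the Dnmt3L KO at 50.5% of the lower control. With a 3-fold rule Pdha2 no longer passed in either mutant, and the counts were 5 and 4. The share of all genes past a 3-fold rule is not given here. Whether the change of Pdha2 differs from that of the other testis isozymes was not tested.

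The log2 change, computed as log2 of FPKM + 1 in the mutant over the mean of the controls, had a median of -5.99 over the testis isozymes in the Pld6 KO and -5.27 in the Dnmt3L KO. Over the somatic partners the medians were -0.30 and 0.18, and over all genes 0.00 in both. The values for Ldhc were -7.32 and -6.93, for Ldhal6b -6.16 and -5.27, for Pgk2 -5.99 and -5.69, for Gapdhs -4.95 and -4.59 and for Pdha2 -1.44 and -1.70, in the Pld6 KO and the Dnmt3L KO. Adding 1 to a level holds back the change of genes near 0, so the value for Pgk2 in particular understates its difference. The value for Gapdhs depends most on the control: with the heterozygote left out it was -3.18 and -2.82. The values against the Pld6 WT alone were -6.71 and -6.33 for Ldhc, -5.59 and -4.69 for Ldhal6b, -5.33 and -5.03 for Pgk2 and -1.09 and -1.35 for Pdha2.

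**Figure D2:**
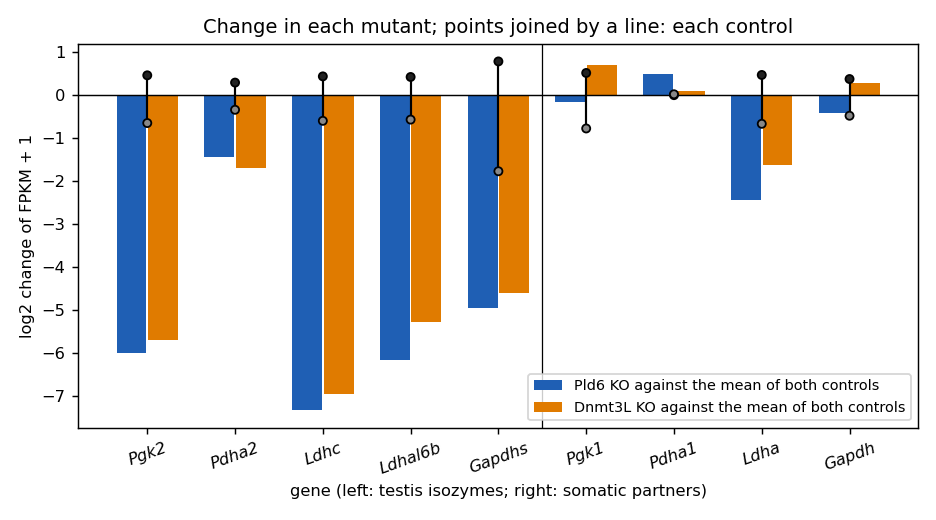
Log2 change of FPKM + 1 in each mutant against the mean of the controls (bars) for the 9 genes, with each control against that mean as a joined pair of points. Bars of the 5 testis isozymes reach below both control points in both mutants, down to -7.32 for Ldhc, and the bars of Pgk1, Pdha1 and Gapdh stay between -0.43 and 0.70.

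In edgeR's quasi-likelihood test across 18657 genes, 0 of the 9 members reached an adjusted p under 0.05 in a mutant, as did 0% of all genes. The only residual degree of freedom came from the difference between the controls. For the tests in this paragraph and the next, all genes means all genes tested. These were 18657 in edgeR and 20568 in edgeR without the filter. In DESeq2 they were the 18591 (Pld6 KO) and 17405 (Dnmt3L KO) genes given an adjusted p. For Pgk2, Ldhc and Ldhal6b the edgeR adjusted p (Benjamini-Hochberg) was 0.102 in the Pld6 KO and 0.0967 in the Dnmt3L KO, the smallest among the members. The edgeR log2 change of Pgk2 was -11.39 (SE 1.41) and -7.95 (SE 1.15), that of Ldhc was -7.97 (SE 1.01) and -7.38 (SE 0.985), and that of Ldhal6b was -8.75 (SE 1.15) and -6.11 (SE 0.9995). Each edgeR SE, here and below, is the size of the log2 change over the square root of the test's F statistic. It is no standard error taken from the fit. Gapdhs had an edgeR adjusted p of 0.208 and 0.257, and Pdha2 of 0.751 and 0.586. At an unadjusted p under 0.05, 5 members were lower in the Pld6 KO (7.41% of all genes) and 4 in the Dnmt3L KO (7.72%), and 0 were higher (0.547% and 1.09%). DESeq2 called 5 members lower in the Pld6 KO (5.1% of all genes) and 4 in the Dnmt3L KO (5.31%), namely Pgk2, Ldhc, Ldhal6b and Gapdhs in both and Ldha in the Pld6 KO. In edgeR without a filter on low counts the calls were Pgk2, Ldhc and Ldhal6b in both mutants (2.09% and 2.06% of all genes).

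Both mutants were also pooled against both controls, a comparison chosen after seeing the data. Without a block, edgeR called 0 of the 9 members (0% of all genes). At an unadjusted p under 0.05 in edgeR, 6 members were lower, but the share of all genes at that p is not given here. With the line as a block, so that each mutant is set against the control of its own line, edgeR called 6 members lower at an adjusted p of 0.05 (6.32% of all genes). These were Ldhc at a log2 change of -7.60 (SE 0.356, edgeR adjusted p 4.84e-05), Pgk2 at -8.91 (SE 0.517, edgeR adjusted p 8.64e-05), Ldhal6b at -7.13 (SE 0.470), Gapdhs at -5.23 (SE 0.512), Ldha at -2.11 (SE 0.254) and Pdha2 at -1.70 (SE 0.337, edgeR adjusted p 0.0180). All 6 were lower in both lines. Pgk1, Pdha1 and Gapdh had edgeR adjusted p-values of 0.491, 0.681 and 0.956. This fit has 1 residual degree of freedom and assumes 1 change common to both mutants, so it does not test either mutant alone.

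The balance within each pair shows the same difference on a scale that does not depend on library depth. Pgk2 made up 58.1% of the FPKM of the Pgk2 and Pgk1 pair in the heterozygote and 61.4% in the WT, but 0.0577% in the Pld6 KO and 0.356% in the Dnmt3L KO. Ldhc made up 78.7% and 79.9% of its pair with Ldha in the controls, against 8.05% and 6.76% in the mutants. The controls were within a few percentage points of each other for both pairs although the levels of these 4 genes were 2.05-fold to 2.50-fold apart. Ldhal6b held 40.2% and 42.6% beside Ldha in the controls and 0.923% and 3.11% in the mutants. Pdha2 held 61.1% and 49.5% in the controls and 23.3% and 24.9% in the mutants, the smallest shift of the 5 pairs on the log2 scale. Gapdhs held 14.1% and 4.59% in the controls, which were again far apart, and 0.254% and 0.250% in the mutants.

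**Figure D3:**
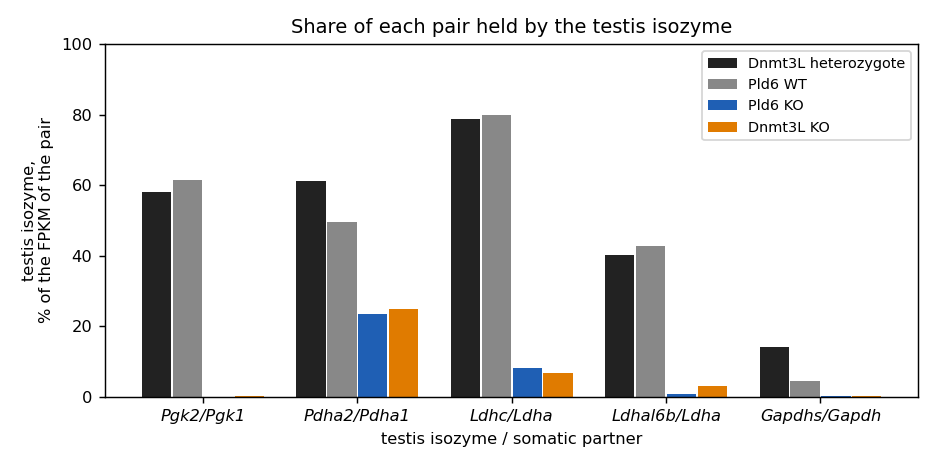
Share of the summed FPKM of each pair held by the testis isozyme, with 1 bar per library. Control bars reach 79.9% for Ldhc with Ldha and 61.4% for Pgk2 with Pgk1, and in every pair both mutant bars are below both control bars, with those of Pgk2 and Gapdhs under 1%.

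As a share of sequencing, the 5 testis isozymes drew 1155 fragments out of every 1000000 in the heterozygote and 523 in the WT, against 20.4 in the Pld6 KO and 18.8 in the Dnmt3L KO. The 4 somatic partners drew 1068 and 566 in the controls and 556 and 790 in the mutants. The Pld6 KO was thus just below the lower control, and the Dnmt3L KO lay between the controls.

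The LDH family has a further gene, Ldhb, that is no member of the 9. Ldhb, the form of heart and of many supporting cells, was listed at 702.5 FPKM in the heterozygote, 27.5 FPKM in the WT, 94.5 FPKM (3260 fragments) in the Pld6 KO and 880.0 FPKM (45386 fragments) in the Dnmt3L KO, the same order of libraries as the Sertoli cell markers. Of the FPKM of Ldha, Ldhb, Ldhc and Ldhal6b together, Ldhc took 38.7% in the heterozygote and 65.4% in the WT, and 1.61% and 0.303% in the Pld6 KO and Dnmt3L KO. Ldhb took 43.7%, 5.92%, 79.8% and 95.4%. The part of somatic cells in these shares was not tested.

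The markers of later germ cells moved with the testis isozymes. Of the 16 spermatid markers, 15 were more than 2-fold below both controls in the Pld6 KO and 14 in the Dnmt3L KO. Their median log2 changes were -4.43 and -4.85. Over all genes, 5.41% and 5.78% were lower by this rule and 1.04% and 2.14% higher, in the same order. Prm1, a protamine of condensing spermatids, was listed at 2372, 16.3, 2.87 and 1.81 FPKM in the heterozygote, WT, Pld6 KO and Dnmt3L KO. Markers listed at 0 were Acrv1, Catsper1 and Sun5 in the Pld6 KO and Tssk3, Catsper1, Hils1, Sun5 and Smcp in the Dnmt3L KO. Of the 12 pachytene markers, 9 were lower in each mutant, with median log2 changes of -2.08 and -2.35, and Acr was at 0 in the Pld6 KO. Of the 18 L/Z markers, 1 and 3 were lower and 0 higher, with medians of -0.42 and -1.10. Of the 16 spermatogonial markers, 0 were lower and 2 higher (Gfra1 and Kit) in the Pld6 KO, and 1 was lower and 1 higher (Gfra1) in the Dnmt3L KO, with medians of 0.08 and -0.34. The part of pachytene spermatocytes and spermatids in the levels of the isozymes was not tested.

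The controls differed in these lists too. The median ratio of the heterozygote to the WT was 5.34 for the spermatid markers and 1.30 for the pachytene markers. It was 6.15 for Gapdhs, 2.18 for Pgk2, 2.05 for Ldhc, 2.002 for Ldhal6b and 1.58 for Pdha2. Of the somatic partners, Pgk1 had a ratio of 2.50, Ldha 2.21, Gapdh 1.81 and Pdha1 0.985. The heterozygote was more than 2-fold above the WT on the FPKM + 1 scale in 5 of the 9 members, as it was in 11.1% of all genes.

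**Figure D4:**
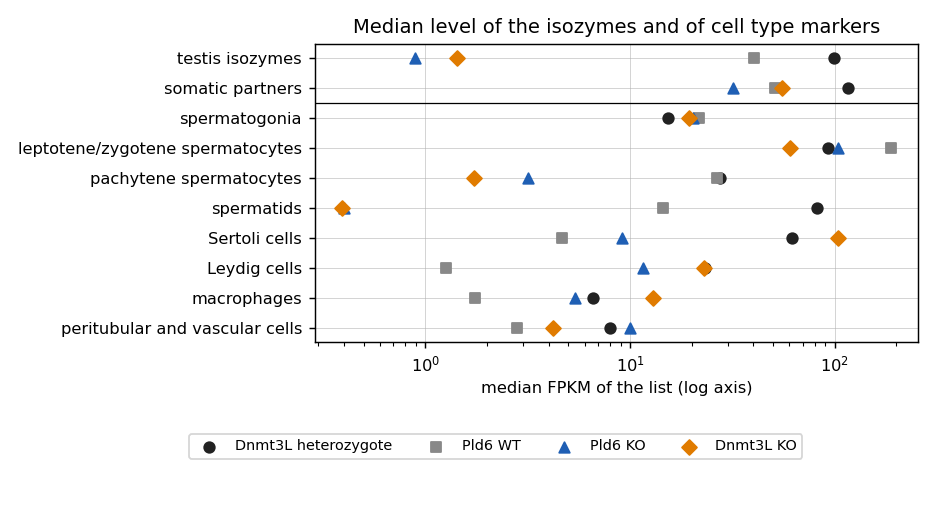
Median FPKM on a log axis of the testis isozymes, the somatic partners and 8 lists of cell type markers, with 1 point per library. The mutants sit to the left of both controls for the testis isozymes, pachytene and spermatid lists, whereas for Sertoli cells the Pld6 WT is lowest and the Dnmt3L KO highest.

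Of 49 other genes of glycolysis and pyruvate use, 7 were lower and 1 higher in the Pld6 KO (5.41% and 1.04% of all genes). In the Dnmt3L KO 5 were lower and 2 higher (5.78% and 2.14% of all genes). A mean FPKM of at least 1 was reached by 43 of the 49. Among all genes that reach it, 8.57% were lower and 1.51% higher in the Pld6 KO, and 9.16% and 3.29% in the Dnmt3L KO. The counts in the Dnmt3L KO are near these last shares. The median log2 change of the 49 genes was -0.44 in the Pld6 KO and 0.06 in the Dnmt3L KO. The 4 genes lower in both mutants were Pgam2, Aldoart2, Slc16a7 and Slc2a3. Lower in both were 4.61% of all genes and 7.3% of those with a mean FPKM of at least 1. This count too is near the latter share. Aldoart1, Mpc1 and Eno1 were lower in the Pld6 KO alone and Hk1 in the Dnmt3L KO alone by this rule, and the difference between the mutants was not tested.

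Pgam2, a phosphoglycerate mutase of muscle and testis, was listed at 183 FPKM in the heterozygote, 69.0 FPKM in the WT, 1.84 FPKM (41 fragments) in the Pld6 KO and 1.23 FPKM (41 fragments) in the Dnmt3L KO. Aldoart2, an aldolase retrogene of the testis, was at 18.6 and 7.45 FPKM in the controls, with 1 fragment in the Pld6 KO and 0 in the Dnmt3L KO. The 0 allows up to 3 fragments. Slc16a7, which encodes the lactate and pyruvate transporter MCT2, was at 23.6 and 13.5 FPKM against 0.98 and 1.04 FPKM. Slc2a3, which encodes the glucose transporter GLUT3, was at 52.0 and 44.6 FPKM against 2.49 and 8.61 FPKM.

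By the same rule 1 gene was higher in the Pld6 KO and 2 in the Dnmt3L KO. Slc2a1, which encodes the glucose transporter GLUT1, was at 28.5 FPKM in the Pld6 KO against 12.9 FPKM in the heterozygote and 9.85 FPKM in the WT. In the same library 3 of the 10 peritubular and vascular markers (Pecam1, Cdh5 and Tek) were higher by this rule (1.04% of all genes). Their part in the level of Slc2a1 was not tested. Hk2, a hexokinase, was at 40.2 FPKM in the Dnmt3L KO against 18.6 and 6.52 FPKM. Eno1, an enolase, was at 76.6 FPKM in the Dnmt3L KO against 36.1 and 17.1 FPKM, but at 7.72 FPKM in the Pld6 KO, below both controls. The edgeR adjusted p was 0.780 for Slc2a1 in the Pld6 KO, and 0.644 for Hk2 and 0.657 for Eno1 in the Dnmt3L KO.

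**Figure D5:**
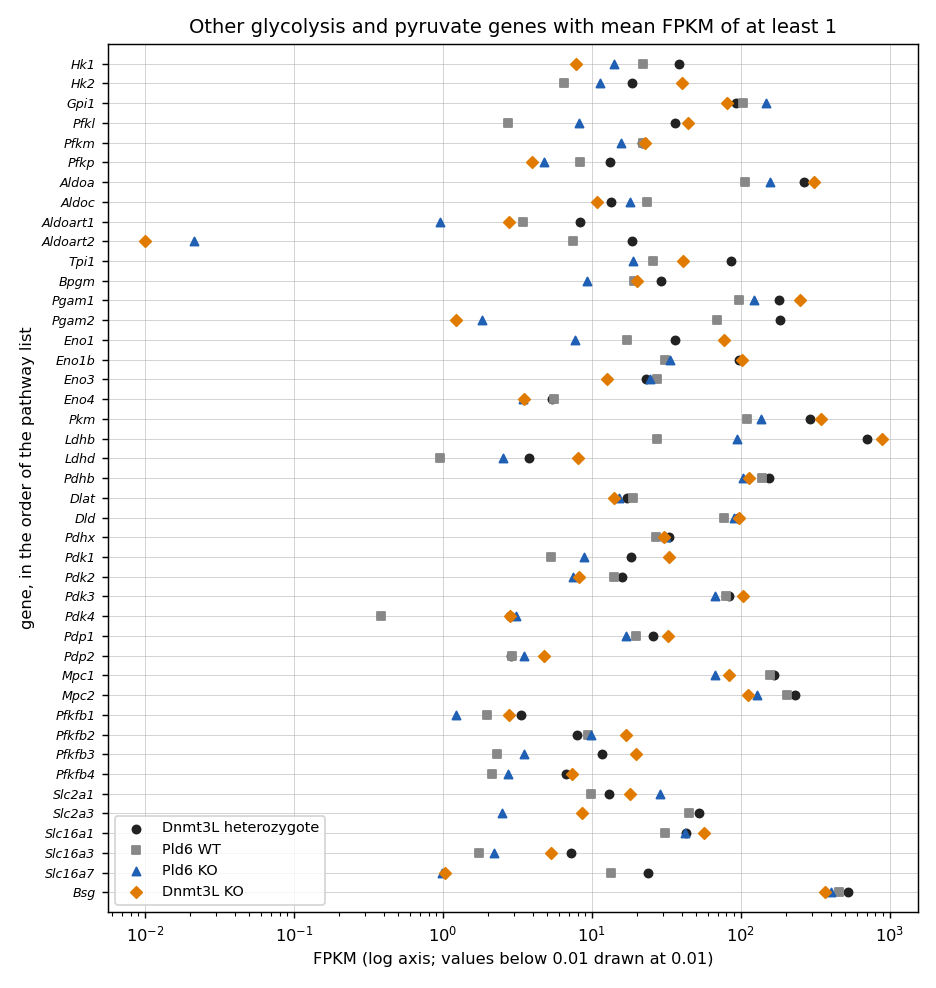
FPKM on a log axis of the 43 other genes of glycolysis and pyruvate use with a mean of at least 1 FPKM, with 1 point per library. Aldoart2, Pgam2, Slc2a3 and Slc16a7 have both mutants far to the left of both controls. In others, such as Ldhb and Pfkl, the controls themselves lie far apart.

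Other autosomal retrogenes of X-linked genes gave a split result. Of 10 such genes other than the members, 5 were lower in the Pld6 KO and 5 in the Dnmt3L KO, with 4 in both and none higher. Over all genes, 5.41% were lower in the Pld6 KO, 5.78% in the Dnmt3L KO and 4.61% in both. The median log2 change of the 10 genes was -0.95 and -1.20. Gk2, a glycerol kinase, was at 100.6 and 57.7 FPKM in the heterozygote and WT, and at 0.594 and 0.282 FPKM in the Pld6 KO and Dnmt3L KO. Cetn1, a centrin, was at 145 and 53.2 FPKM against 1.49 and 0.721 FPKM. Prps1l1, which encodes a form of the enzyme that makes phosphoribosyl pyrophosphate, was at 23.7 and 11.2 FPKM, with 0 fragments in the Pld6 KO and 11 in the Dnmt3L KO. Ubl4b, a ubiquitin-like gene, was at 21.1 and 1.88 FPKM and had 0 fragments in both mutants. The fifth gene of each count was G6pd2 in the Pld6 KO and Rpl10l in the Dnmt3L KO. Rpl10l was at 134 and 123 FPKM in the controls and below both in each mutant, at 74.3 and 52.2 FPKM, and G6pd2 was low throughout, at 2.12, 2.21, 0.462 and 1.34 FPKM. The difference between the mutants was not tested.

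Their X-linked parents, like Pgk1 and Pdha1, passed the fold rule in neither mutant. Of the 10 parents, 0 were higher and 0 lower in either mutant, with median log2 changes of -0.11 and 0.16. Over all genes, 1.04% were higher and 5.41% lower in the Pld6 KO, and 2.14% and 5.78% in the Dnmt3L KO. For 10 genes, a count of 0 is near these shares. Of 1042 genes on the X chromosome, 10 were higher and 82 lower in the Pld6 KO (1.04% and 5.41% of all genes). In the Dnmt3L KO 40 were higher and 78 lower (2.14% and 5.78% of all genes). The medians of the X-linked genes were -0.04 and 0.00.

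The genes whose pattern over the 4 libraries was most like that of each testis isozyme were sought among 14415 other genes with a mean FPKM of at least 1, by the root mean square difference of centred log2(FPKM + 1). With only 4 libraries, 2 of them far below the others, many genes must come close. The nearest to Pgk2 were 1700011E24Rik at 0.14 and Fbp1, the fructose bisphosphatase of gluconeogenesis, at 0.14. Fbp1 was listed at 77.8 FPKM in the heterozygote, 43.6 FPKM in the WT, 0 FPKM for the Pld6 KO, and 0.0661 FPKM in the Dnmt3L KO. 1700011E24Rik was also the nearest to Ldhal6b, at 0.13, and Pgk2 was next at 0.22. Hrasls5, at 0.17, and 4922502D21Rik, at 0.27, were nearest to Ldhc. Iqcf4, at 0.15, and Spert, at 0.17, both listed at 0 FPKM in both mutants, were nearest to Gapdhs. Pdha2 had the closest neighbours, Prom1 at 0.03 and Ubtd1 at 0.06. Ubtd1 was listed at 37.0, 22.4, 10.5 and 9.36 FPKM in the heterozygote, WT, Pld6 KO and Dnmt3L KO. Prom1 was at 4.32, 2.51, 0.567 and 0.318 FPKM in that order. Adding 1 holds back the changes of such low levels, so the closeness of Prom1 does not mean equal fold changes.

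Among the members themselves the nearest were Pgk2 and Ldhal6b, at 0.22, followed by Pgk1 and Gapdh, at 0.27, and Pdha2 and Ldha, at 0.46. Pdha2 was thus nearer to the somatic Ldha than to any other testis isozyme, of which Gapdhs was the closest at 1.54. Likewise Ldha was nearer to Pdha2 than to Gapdh, at 0.96, or to Pgk1, at 1.17.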

How the data were processed

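PolyA(+) RNA of FACS-purified L/Z spermatocytes was sequenced with a stranded kit, in 50-base reads by the study's methods, aligned with TopHat2 and quantified on RefSeq genes with Cuffdiff. Versions are not given in the sources used here, and mm10 (GRCm38) is the build named in the submitters' processing notes. The deposited table holds estimated counts (fragments of each gene in each library), of which 97.3% to 97.4% were whole numbers, and the FPKM that the authors' tool scaled to gene length and library depth. A deposited scaled count, treated as a score, served only to read the tool's depth scale. Of the FPKM values, 31 were marked as failed by the tool, 0 of them for the 9 genes, and these were kept as listed. The total fragments per library (30439943 to 63875934) exceed the read numbers the study gives for its L/Z libraries, for a reason not given in the sources used here, so counting intervals may be too narrow. They cover counting error only, at 95%, and a count of 0 allows up to 3 fragments.

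Groups came from the labels: 2 controls of different genotype and line, and 1 library for each mutant. Replicate numbers only name libraries. Changes are log2 of FPKM + 1 in a mutant over that of the control mean, a scale that understates changes of low genes, and the fold rule asks for FPKM + 1 more than 2-fold beyond both controls. Estimated counts were rounded and tested over all genes with edgeR 4.0.16 (glmQLFit and glmQLFTest, TMM, filterByExpr, 3 groups, Benjamini-Hochberg at 0.05) in R 4.3.3. The same steps were also run on counts simulated from the control means. The spread of the edgeR model is that between the controls, which differ in genotype and line. Whether they were sorted together is not given in the sources used here. Each SE printed for edgeR was worked back from the log2 change and the F statistic. Alternatives were a pseudocount of 0.1, TMM scaling of FPKM (by 1 factor per library, since the table holds no effective lengths), each control alone, a 3-fold rule, a mean FPKM of at least 1, edgeR with relative log expression or without a filter, and DESeq2 1.42.0. Added after seeing the data was an edgeR fit of both mutants together against both controls, without and with line as a block, where the genotype labels put 1 mutant and 1 control in each line. Shared litters or days are not given in the sources used here. The members, pairs and gene lists were chosen with earlier results of these data known. Besides the members, the text names by rule the 4 genes of the glycolysis list furthest past the fold rule in each direction and mutant with a mean FPKM of at least 1, the retrogenes past it in both mutants, and the 2 genes nearest in pattern to each testis isozyme. Other genes were named after their values were seen. Gene positions came from RefSeq (GRCm38.p6), transcripts and exons from GENCODE M21 (the model with the longest coding sequence), and upstream sequences from RefSeq, which matched 9 of the 9 members. Of the list genes, 3 were matched through older symbols.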

Additional observations from a re-analysis of the deposited data

Results flagged for a closer look

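Set against the control of its own line, 1 of the 9 members and 4 gene lists pointed in opposite directions in the mutants. Gapdh was higher in the Pld6 KO than in the Pld6 WT by 0.0577 on the log2 scale of FPKM + 1, and its value in the Dnmt3L KO relative to the heterozygote was -0.0885. The median over the 10 X-linked parents of retrogenes was -0.00320 for the Pld6 KO over the Pld6 WT and 0.0281 for the Dnmt3L KO over the heterozygote. The medians of the spermatogonial markers were -0.0535 and 0.107, those of the Leydig cell markers 2.32 and -0.0183, and those of the peritubular and vascular markers 1.54 and -0.384, in the same order. The last 2 lists thus stood above the WT in the Pld6 KO but not above the heterozygote in the Dnmt3L KO. The values for Gapdh, the X-linked parents and the spermatogonial markers were 0.107 or less in size. Their opposite signs therefore carry little weight. All 5 differences rest on 1 library on each side and were not tested.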

How the results depend on the processing

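The 5 testis isozymes kept their direction and stayed more than 2-fold below the controls in both mutants with a pseudocount of 0.1, with TMM scaling and with each control alone, whereas Pdha2 did not pass a 3-fold rule. With a pseudocount of 0.1 the median log2 change of the testis isozymes in the Pld6 KO moved from -5.99 to -7.85. The same setting moved the log2 ratio of Pgk2 to Pgk1 to -8.33 in the Pld6 KO and -7.66 in the Dnmt3L KO (from -5.30 and -5.86), that of Ldhc to Ldha to -3.45 and -3.74 (from -2.97 and -3.38) and that of Ldhal6b to Ldha to -6.17 and -4.85 (from -4.24 and -4.14). A smaller pseudocount adds less to values near 0. In place of 0 members passing edgeR, 3 passed in each mutant without the filter on low counts, and DESeq2 called 5 in the Pld6 KO and 4 in the Dnmt3L KO. The cause was not tested. With relative log expression 0 passed in each. With the Dnmt3L heterozygote or the Pld6 WT left out in turn, 0 to 1 members were higher in the Dnmt3L KO, the 1 being Pgk1 at 286% of the Pld6 WT alone. Counts of lower members stayed at 6 in the Pld6 KO and ranged from 5 to 6 in the Dnmt3L KO. There Ldha passed against the heterozygote alone and also with TMM scaling. For counts with a control left out or with TMM scaling, the share of all genes is not given here. The median of the testis isozymes ranged from -6.44 to -5.33 in the Pld6 KO and from -5.68 to -4.69 in the Dnmt3L KO, and that of the somatic partners from -0.73 to 0.27 and from 0.00 to 0.42. The direction of the somatic partners thus depends on the control in the Pld6 KO. Gapdhs moved most, from -4.95 and -4.59 to -3.18 and -2.82 without the heterozygote. For both mutants together, chosen after seeing the data, 0 members passed edgeR without and 6 with line as the block. Replicate numbers do not pair libraries, and no paired analysis was possible because each mutant has 1 library where the mutants are tested apart. Depth limits Pgk2 in the Pld6 KO, which rests on 1 fragment.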
